A study of Mus musculus with 32 samples.

Results

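The 10 genes described here are regulators of cell survival of the BCL2 family, chosen by name: Bcl2, Bcl2l1, Mcl1, Bcl2a1a, Bcl2a1b, Bcl2a1d, Bcl2l11, Bbc3, Bax and Bak1. They are 10 of 25067 genes in a table of RNA-seq counts, and all 10 passed the filter on low expression. The study asked what loss of the nuclear receptor Nur77 (gene symbol Nr4a1) does to the transcriptome of bone marrow-derived macrophages (BMDMs), primary macrophages grown from marrow, after stimulation with LPS, a bacterial cell wall component that macrophages sense through TLR4. There were 32 libraries in 8 groups of 4. WT and Nur77-KO BMDMs were each sampled without LPS (0 h) and after 1, 5 and 18 h of 100 ng/ml LPS.

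Both genotypes were male mice aged 6 to 12 weeks, and marrow of both was cultured for 7 days in medium with L929-conditioned supplement. Nur77-KO mice lacked Nr4a1 in the whole body: loxP-flanked Nr4a1 had been deleted by breeding to C57Bl6/J mice with Cre under a CMV promoter. The Cre was then bred out, and WT littermates served as controls. The sample labels nevertheless give the knockout genotype as "cre". Neither the labels nor the methods say from how many animals the 4 libraries of a group came, so p-values measure the spread between these libraries, which may be technical.

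BCL2 family proteins decide at the outer mitochondrial membrane whether a cell starts the intrinsic pathway of apoptosis. The survival members BCL2, BCL-XL, MCL1 and A1 hold the pore-forming effectors BAX and BAK in check, and BH3-only proteins such as BIM and PUMA bind the survival members or activate the effectors, after which cytochrome c leaves the mitochondria and caspases are activated. In macrophages, A1 and MCL1 are known as survival proteins induced by inflammatory signals, and mice carry several nearly identical A1 genes.

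The 3 A1 copies, Bcl2a1a, Bcl2a1b and Bcl2a1d, lie on chromosome 9, and their similarity limits how well short reads can be assigned to one of them. The first 60 bases of the coding sequence (exon 1, GRCm38) are shown because 6 of the 12 positions that differ among the 516 coding bases of the copies are in this stretch. Capitals mark the positions that differ among the copies.
Bcl2a1a, chr9:88957051-88957110, plus strand: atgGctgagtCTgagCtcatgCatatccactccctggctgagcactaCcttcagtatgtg
Bcl2a1b, chr9:89199360-89199419, plus strand: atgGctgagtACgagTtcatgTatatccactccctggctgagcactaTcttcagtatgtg
Bcl2a1d, chr9:88731660-88731719, minus strand: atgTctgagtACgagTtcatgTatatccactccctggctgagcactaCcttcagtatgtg
Over the aligned transcripts, with gaps counted as differences, Bcl2a1a and Bcl2a1b were 97.9% identical, Bcl2a1a and Bcl2a1d 93.7%, and Bcl2a1b and Bcl2a1d 93.9%. These alignments held 802, 809 and 810 identical bases and 2, 44 and 46 gap columns. The lower percentages of Bcl2a1d thus come with its longer transcript (863 bases, against 819 and 817), not with fewer identical bases. Of the 150-base windows of each transcript, 28.2% of Bcl2a1a, 41.9% of Bcl2a1b and 30.3% of Bcl2a1d also occurred in another annotated gene, and for Bcl2a1b 49.1% of the exonic bases are also annotated to Gm29094 on the same strand. Values of single copies are therefore uncertain, and the summed count of the 3 copies is given beside them.

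The promoter windows of RefSeq (GRCm38.p6, 250 bases before to 50 after each annotated start) were searched on both strands for 4 motifs, because LPS acts on transcription through factors that bind such sites. An AP-1 motif (TGANTCA) was found in 3 of 15 member promoters, those of the 3 A1 copies, against 7.81% of 32851 promoters of the genome. The 3 copies carry the match within the same surrounding bases, so these are not 3 independent promoters, and the count shows no enrichment. A kappaB motif (GGGNNTTNC) was found in 4 of 15 member promoters, against 15.2% of all promoters. The NBRE, the monomer site of Nur77 (AAAGGTCA, 1.51% of all promoters), and an interferon response element (GAAANNGAA, 8.56%) had 0 matches in the member promoters, which says only that these letters are absent from these windows. No promoter held matches to more than 1 of the motifs, and where it held several matches (2 in Bcl2l1, 3 in Bbc3) 1 is shown. The matches are shown in capitals within 60 bases, read 5′ to 3′ on the strand of the gene.
Bcl2a1a, AP-1, chr9:88956774-88956833, plus strand: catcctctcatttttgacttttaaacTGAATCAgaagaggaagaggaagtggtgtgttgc
Bcl2a1b, AP-1, chr9:89199083-89199142, plus strand: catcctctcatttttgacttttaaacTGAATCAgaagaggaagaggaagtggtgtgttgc
Bcl2a1d, AP-1, chr9:88731931-88731990, minus strand: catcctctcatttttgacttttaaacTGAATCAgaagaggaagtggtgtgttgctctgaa
Bcl2l11, kappaB, chr2:128125899-128125958, plus strand: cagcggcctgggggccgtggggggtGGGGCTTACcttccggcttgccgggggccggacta
Bcl2l1, kappaB, chr2:152830805-152830864, minus strand: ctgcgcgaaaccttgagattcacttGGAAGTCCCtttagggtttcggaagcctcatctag
Mcl1, kappaB, chr3:95658661-95658720, plus strand: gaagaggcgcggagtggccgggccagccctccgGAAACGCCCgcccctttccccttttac
Bbc3, kappaB, chr7:16309463-16309522, plus strand: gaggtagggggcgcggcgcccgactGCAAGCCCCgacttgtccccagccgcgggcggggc
In the Bcl2a1a and Bcl2a1b promoters the same 60 bases were found, with the match starting 120 and 164 bases before the annotated start. In the Bcl2a1d window the match starts 114 bases before it. Bcl2l11 and Bcl2l1 were matched at 114 and 122 bases before the start, Mcl1 at 27 and Bbc3 at 95. Bcl2, Bax and Bak1 had no match to any of the 4 motifs.

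The libraries held 8742362 to 15780926 counts (median 11847140). Nr4a1 itself was lower in the Nur77-KO libraries at 0 h (5.23 ± 1.18 against 19.6 ± 4.33 CPM, counts scaled to the library's total, mean ± SD, n = 4) and at 1 h (190 ± 39.8 against 436 ± 60.2), with reads still assigned to the gene in Nur77-KO. At 18 h both genotypes were below 0.5 CPM. All 9 macrophage markers were detected in every group, with a summed level of 11350 to 19037 CPM. At 18 h their sum was lower in Nur77-KO (11350 to 12972 CPM) than in WT (14273 to 14979), with 4 of the 9 called lower (Csf1r, Itgam, Adgre1 and Fcgr1, log2 -0.64 to -0.30) and 1 higher (Mertk, 0.69), and the part of this shift in the 18 h differences of the members was not tested. The neutrophil sum at 1 h was higher in Nur77-KO (44 to 52.5 CPM) than in WT (28.4 to 38.2). The summed levels of 10 neutrophil markers (18.2 to 52.5 CPM), 10 lymphocyte markers (10.6 to 26.1 CPM), 6 fibroblast markers (0 to 1.88 CPM) and 6 dendritic cell markers (0.761 to 22.2 CPM) were far lower. Of the 10 neutrophil markers, Ly6g, Elane and Retnlg were at 0 in WT at 18 h, and Elane, Mpo and Retnlg in Nur77-KO. At 0 h every neutrophil marker had counts in some library of each genotype. Called higher in Nur77-KO were S100a8 (log2 0.70) and Ltf (0.62) at 0 h, and Ltf (0.73) and Ngp (0.67) at 1 h. No neutrophil marker was called lower at these times. Replicate 1 of Nur77-KO at 5 h and replicate 4 of Nur77-KO at 18 h stood apart from their groups (SD of log2 differences to the group mean 0.545 and 0.388), and in them log2 levels relative to the group mean fell by 0.55 and 0.39 for each 10 percentage points of transcript GC. The next steepest falling slope was -0.27, in replicate 3 of WT at 18 h. Relative to their group mean, replicates 3 and 4 of Nur77-KO at 5 h had rising slopes of 0.25 and 0.29 (SD 0.314 and 0.336). Relative to all 32 libraries, replicate 2 of Nur77-KO at 5 h also had a slope of -0.39. Results that rest on these 2 libraries are also given without them.

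In WT, 7 of the 10 members were called at each time of LPS, where either direction held 20.3% (1 h), 70.0% (5 h) and 66.3% (18 h) of the genes tested. The 3 A1 copies share reads and ran alike over the libraries (Pearson r of 0.87 to 0.98). They are therefore not 3 independent members in this or any later count or median. At 1 h in WT, 5 of 10 members were called higher (the 3 A1 copies, Mcl1 and Bcl2l11) and 2 lower (Bbc3 and Bak1), in edgeR's quasi-likelihood test with a Benjamini-Hochberg adjusted p under 0.05, where 10.2% of the 11279 genes tested were called higher and 10.2% lower. At 5 h, 5 members were higher (the A1 copies, Mcl1 and Bak1) and 2 lower (Bcl2 and Bcl2l1), against 30.0% and 40.1% of all genes. The same members were called in the same directions at 18 h, against 32.3% and 33.9%. Their median log2 change was 0.55 at 1 h, 0.36 at 5 h and 0.58 at 18 h, where the median over all genes was -0.03, -0.14 and -0.01. In Nur77-KO, 5 members were higher at each of the 3 times (6.86%, 32.2% and 33.7% of all genes), with the same names as in WT. At 1 h 0 Nur77-KO members were lower by edgeR and by DESeq2, and 0 of the lower ones had an unadjusted p under 0.05 (5.37% of all genes were lower), at 5 h 2 were lower (39.1%), and at 18 h 3 were lower, Bcl2, Bcl2l1 and Bcl2l11 (35.5%).

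Among the members, the genotype difference was called most often at 18 h. Over all genes, 24.2% were called at 5 h and 21.5% at 18 h. In Nur77-KO at 18 h, 5 of 10 members were higher (Bcl2a1a, Bcl2a1b, Bcl2a1d, Bcl2 and Bak1), against 11.7% of all genes, and Bcl2l11 was lower, against 9.80%. Of these 5, the 3 A1 copies are not independent of each other. At 0 h, Bcl2 and Bcl2a1a were higher (6.29% of all genes higher, 6.38% lower). At 1 h only Bcl2l11 was called, as lower (3.04% of all genes lower, 3.47% higher). At 5 h Bcl2l11 and Bak1 were lower (10.7% lower, 13.5% higher). Median member differences at 0, 1, 5 and 18 h were -0.12, 0.06, -0.17 and 0.16 on the log2 scale, beside -0.03, -0.00, 0.02 and -0.01 over all genes. In the fit to only the libraries compared, the count of members called at 5 h was 0 in place of 2, and at 18 h it was 4 in place of 6. Without the 2 libraries that stood apart 6 were called at 18 h, with Mcl1 lower and without Bcl2.

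**Figure D1:**
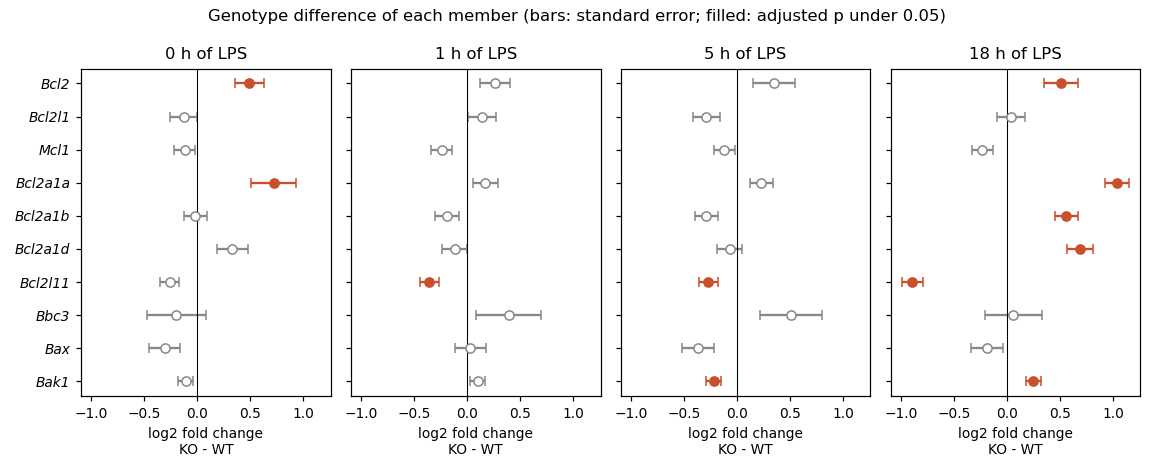
Difference between Nur77-KO and WT BMDMs for the 10 members at 0, 1, 5 and 18 h of LPS, as log2 fold change with standard error from edgeR; filled points have an adjusted p under 0.05. The A1 copies sit above 0 at 18 h (0.56 to 1.04) and Bcl2l11 sits below 0 at all 4 times (-0.89 at 18 h).

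Bcl2a1a, Bcl2a1b and Bcl2a1d encode A1, a short-lived survival protein. In WT, Bcl2a1a and Bcl2a1d had the largest LPS responses of the 10 members at each time, and all 3 copies were higher in Nur77-KO than in WT at 18 h. Bcl2a1a (NM_009742, chr9:88956920-88962416) had 12 to 22 counts per library in WT and 11 to 38 in Nur77-KO without LPS. In WT the 4 libraries read 0.913, 1.09, 1.28 and 1.59 CPM before LPS, 15, 14.7, 12.5 and 15.5 after 1 h, 77.7, 77.2, 81.1 and 87 after 5 h, and 34.5, 39.9, 35.8 and 34.9 after 18 h. In Nur77-KO they read 1, 2.4, 2.14 and 2.3 CPM before LPS, 18.1, 15.5, 15 and 16.2 after 1 h, 107, 96.2, 77.6 and 98.7 after 5 h, and 77.2, 73.8, 65.7 and 82.6 after 18 h. No WT library overlapped between times, and at 18 h every Nur77-KO library was above every WT library. In WT the log2 change from 0 h was 3.56 (SE 0.17, adjusted p = 2e-17) at 1 h and 6.05 (SE 0.16, 66.1-fold, adjusted p = 1.7e-24) at 5 h. From 5 to 18 h Bcl2a1a fell by 1.15 on the log2 scale in WT and by 0.34 in Nur77-KO (adjusted p = 0.0066), the latter -0.15 after correction for GC (adjusted p = 0.19). At 18 h the genotype difference was 1.04 (SE 0.11, 2.06-fold, adjusted p = 1.8e-08). The higher value at 0 h (log2 0.72, SE 0.21, adjusted p = 0.023) overlapped between genotypes and was no longer called without any one of 5 libraries, Nur77-KO replicates 2, 3 and 4 and WT replicates 1 and 2 (adjusted p = 0.057 to 0.1), in the fit to the libraries compared (0.07) or after correction for GC (0.093).

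Bcl2a1b (NM_007534, chr9:89199273-89207838) held most of the A1 counts. Its 4 WT libraries read 85.1, 67, 87.3 and 90.3 CPM before LPS, 323, 263, 237 and 266 after 1 h, 709, 751, 758 and 758 after 5 h, and 169, 175, 160 and 172 after 18 h. Nur77-KO libraries read 75.6, 73.1, 80.6 and 96.1 CPM before LPS, 299, 207, 219 and 234 after 1 h, 528, 607, 602 and 705 after 5 h, and 250, 257, 246 and 241 after 18 h. The genotypes overlapped at 0 and 1 h, while at 5 h all Nur77-KO libraries were below and at 18 h all were above the WT libraries. LPS raised Bcl2a1b 9.03-fold at 5 h in WT (log2 3.18, SE 0.12, adjusted p = 9e-21), and at 18 h it was still 2.05-fold above 0 h (log2 1.04, adjusted p = 1.2e-09). The 18 h genotype difference was 0.56 (SE 0.11, 1.47-fold, adjusted p = 0.00027). At 5 h the difference of -0.29 (SE 0.11) had an adjusted p of 0.052. It was called with DESeq2 (-0.27, adjusted p = 0.049), after GC correction (-0.42, adjusted p = 0.035) and without Nur77-KO replicate 4 (-0.36, adjusted p = 0.016).

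Bcl2a1d (NM_007536, chr9:88723288-88731850) read 8.37, 5.7, 7.92 and 9.34 CPM before LPS in WT, 74.7, 61.5, 56.3 and 67.6 after 1 h, 295, 312, 318 and 318 after 5 h, and 94.8, 90.1, 83.3 and 93 after 18 h. In Nur77-KO the values were 7.27, 8.45, 12.4 and 10.9 CPM before LPS, 71.8, 52.3, 56.9 and 57.7 after 1 h, 293, 302, 282 and 308 after 5 h, and 161, 147, 120 and 156 after 18 h. Only at 18 h did the genotypes not overlap. The WT response at 5 h was 5.32 on the log2 scale (SE 0.15, 40-fold, adjusted p = 1.1e-23). At 18 h Nur77-KO was higher by 0.69 (SE 0.12, 1.62-fold, adjusted p = 6.9e-05).

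The sum of the A1 copies does not depend on how the counted reads were divided among them. It can still depend on which reads passed the filter on mapping quality. Of the 150-base windows, 28.2% of Bcl2a1a, 14.2% of Bcl2a1b and 30.3% of Bcl2a1d also occurred in another copy. Bcl2a1b also shares exonic bases with Gm29094. The part of such reads in the sum was not tested. The summed level was 91.5 ± 12.2 CPM in WT and 93 ± 12 CPM in Nur77-KO at 0 h (n = 4 each), and the log2 difference of 0.03 was not called (adjusted p = 0.9 in edgeR's quasi-likelihood test). The sum reached 1136 ± 37.4 CPM in WT and 1002 ± 80 CPM in Nur77-KO at 5 h. At 18 h it had come down to 296 ± 11.4 CPM in WT and 470 ± 25.2 CPM in Nur77-KO, a log2 difference of 0.67 (SE 0.10, adjusted p = 1.3e-05). The change from 0 to 18 h itself differed between genotypes by 0.64 (SE 0.15, adjusted p = 0.0039). Bcl2a1b made up 90.2% of the sum in WT at 0 h and 57.2% at 18 h. In Nur77-KO its share went from 87.5% to 53%. The share of Bcl2a1a rose from 1.34% to 12.3% in WT and from 2.1% to 15.9% in Nur77-KO over the same time. In all 4 groups of each genotype the order of the copies by count was Bcl2a1b, Bcl2a1d, Bcl2a1a. The tests of the sum, unlike its levels, also included a further copy, Bcl2a1c, which reached a mean of 1.52 CPM at most. Dendritic cell markers, which include Ccr7, were also higher in Nur77-KO at 18 h (summed 7.59 to 9.92 CPM against 3.71 to 4.25 in WT), with Cd209a at 0 in both genotypes, Siglech at 0 in WT and Flt3 at 0 in Nur77-KO. The part of these cells in the A1 difference was not tested. In bulk RNA, fewer cells of a type and less RNA per cell cannot be told apart, here and for every gene.

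**Figure D2:**
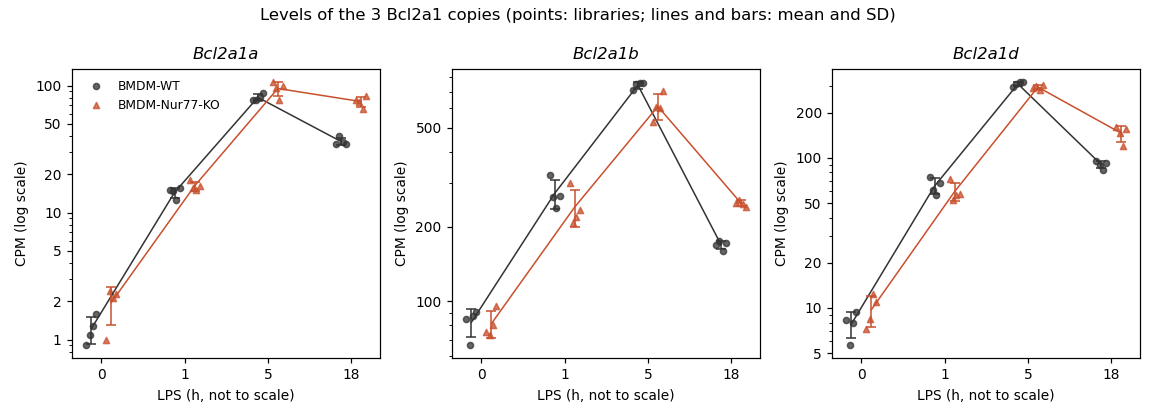
CPM (log axes) of Bcl2a1a, Bcl2a1b and Bcl2a1d in each of the 32 libraries by hours of LPS (time not to scale). Circles are WT and triangles Nur77-KO libraries, lines join group means, and bars are SD (n = 4). The copies peak at 5 h in both genotypes, and the Nur77-KO libraries lie above all WT libraries at 18 h.

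Mcl1 (NM_008562, chr3:95656944-95663179) encodes a short-lived survival protein that most cell types need, and it had the most counts of the 10 members. WT libraries read 653, 630, 634 and 623 CPM before LPS, 1275, 1299, 1193 and 1271 after 1 h, 1108, 1080, 1099 and 1195 after 5 h, and 1206, 1196, 1314 and 1204 after 18 h. Nur77-KO libraries read 604, 561, 596 and 581 CPM before LPS, 1079, 1048, 1059 and 1083 after 1 h, 1339, 1038, 850 and 888 after 5 h, and 984, 934, 1002 and 1266 after 18 h. The genotypes did not overlap at 0 and 1 h, with Nur77-KO lower, and overlapped at 5 and 18 h. LPS raised Mcl1 in WT at 1 h by 0.99 on the log2 scale (SE 0.10, adjusted p = 1.3e-09), at 5 h by 0.82 (adjusted p = 7.6e-09) and at 18 h by 0.95 (adjusted p = 4.1e-10). In Nur77-KO the changes were 0.87, 0.81 and 0.84. The genotype differences of -0.12, -0.24, -0.12 and -0.23 at 0, 1, 5 and 18 h were not called over all libraries (adjusted p = 0.45, 0.16, 0.34 and 0.082). Without the 2 libraries that stood apart they were -0.24 at 1 h (adjusted p = 0.003), -0.28 at 5 h (0.0014) and -0.34 at 18 h (5.4e-05), all called. The adjusted p ranged over the alternatives from 0.003 to 0.23 at 1 h, 0.0014 to 0.54 at 5 h and 5.4e-05 to 0.14 at 18 h. The high values of 1339 and 1266 CPM in Nur77-KO came from these 2 libraries.

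Bcl2l1 (NM_001355053, chr2:152758732-152833803) encodes BCL-XL, a stable survival protein of the mitochondrial membrane, and it declined with LPS. The WT values were 143, 147, 134 and 154 CPM before LPS, 135, 133, 141 and 133 after 1 h, 118, 120, 107 and 105 after 5 h, and 72, 85.7, 69 and 70.2 after 18 h. The Nur77-KO values were 130, 123, 137 and 139 CPM before LPS, 168, 143, 144 and 143 after 1 h, 58.1, 85.5, 112 and 110 after 5 h, and 77, 86.3, 84.6 and 57.3 after 18 h. Every 18 h library of both genotypes was below every 0 h library, and the 5 h group of Nur77-KO spanned the widest range, with replicate 1 lowest. Bcl2l1 fell by 0.96 on the log2 scale from 0 to 18 h in WT (1.95-fold, adjusted p = 1.9e-07) and by 0.79 in Nur77-KO. At 5 h the WT change of -0.37 (SE 0.13, adjusted p = 0.015) was not called with DESeq2's size factors (-0.28, adjusted p = 0.056), in DESeq2's own test (adjusted p = 0.051) or after correction for GC (-0.08, adjusted p = 0.34). The Nur77-KO change at 5 h was -0.53 (adjusted p = 0.0007, and 0.053 in the fit to the libraries compared). No genotype difference of Bcl2l1 was called over all libraries, although at 1 h all Nur77-KO libraries were above all WT libraries (log2 0.14, adjusted p = 0.68). Without replicate 3 or replicate 4 of Nur77-KO at 5 h, the difference at 5 h was -0.41 (adjusted p = 0.024) and -0.39 (adjusted p = 0.029), beside -0.29 over all libraries (adjusted p = 0.1). Without replicate 1, which stood apart, it was -0.13 (adjusted p = 0.48).

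Bcl2 (NM_009741, chr1:106538176-106714290), the founding survival gene of the family, had a low level per length (group means of 0.548 to 3.06 RPKM). Of its exonic bases, 7.76% overlap D630008O14Rik on the opposite strand, and its second transcript had 20.4% of the counts of the one used. WT libraries read 15.5, 17.4, 13.6 and 15.9 CPM before LPS, 14.3, 13.8, 19.6 and 20.2 after 1 h, 3.86, 3.66, 3.99 and 4.25 after 5 h, and 6.39, 7.13, 7.81 and 5.94 after 18 h. Nur77-KO libraries read 26.4, 20.7, 23.9 and 17 CPM before LPS, 18.8, 19.7, 20.5 and 22.3 after 1 h, 6.09, 5.27, 3.83 and 4.9 after 5 h, and 7.86, 8.63, 9.65 and 12.7 after 18 h. In both genotypes all 5 h libraries lay below all 0 h and 1 h libraries, and between the genotypes only the 18 h groups did not overlap. In WT, Bcl2 fell by 1.98 on the log2 scale at 5 h (SE 0.17, 3.96-fold, adjusted p = 1.5e-11) and was still lower at 18 h (-1.19, adjusted p = 7e-08). In Nur77-KO the changes were -2.13 and -1.17. Nur77-KO was higher at 0 h by 0.49 (SE 0.14, adjusted p = 0.021) and at 18 h by 0.51 (SE 0.16, 1.43-fold, adjusted p = 0.022). The 0 h call was lost without Nur77-KO replicate 1 (0.39, adjusted p = 0.11), Nur77-KO replicate 3 (adjusted p = 0.075) or WT replicate 3 (0.082). At 18 h it was lost without Nur77-KO replicate 4 (0.36, adjusted p = 0.14), WT replicate 1 (0.063) or WT replicate 4 (0.08), and in the fit to the libraries compared (0.083). Over all alternatives the adjusted p ran from 0.0037 to 0.031 at 0 h and from 0.0074 to 0.11 at 18 h.

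Among the BH3-only genes, Bcl2l11 (NM_207680, chr2:128126038-128162547) encodes BIM, which binds all survival members and promotes death of myeloid cells and lymphocytes. Without the 2 libraries that stood apart, Mcl1 was called lower in Nur77-KO at 1, 5 and 18 h. Over all libraries, Bcl2l11 rose sharply at 1 h and was the only member called lower in Nur77-KO at 3 times of the 4. In WT it read 99.4, 80.4, 99.6 and 93.4 CPM before LPS, 355, 346, 288 and 355 after 1 h, 80.9, 83.5, 95.6 and 86.6 after 5 h, and 93.8, 85.3, 92.5 and 93.2 after 18 h. In Nur77-KO it read 82.3, 73.3, 78.1 and 78.1 CPM before LPS, 291, 249, 236 and 270 after 1 h, 60.5, 70, 78.2 and 78.6 after 5 h, and 53.8, 49.5, 52.2 and 41.4 after 18 h. WT had returned to its 0 h range by 5 h and stayed there, whereas all 18 h libraries of Nur77-KO were below all of its 0 h libraries. The 1 h response was 1.85 on the log2 scale in WT (SE 0.09, adjusted p = 2.5e-16) and 1.74 in Nur77-KO. At 18 h against 0 h the change was -0.03 in WT (adjusted p = 0.79) and -0.66 in Nur77-KO (adjusted p = 3.3e-07), and the difference between these changes was -0.63 (SE 0.13, adjusted p = 0.0015). The genotype difference at 18 h was -0.89 (SE 0.10, 1.85-fold, adjusted p = 1.8e-08), with no overlap, and stayed between -0.93 and -0.81 over the fits without 1 library (adjusted p of at most 0.00014 in any alternative).

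The earlier differences of Bcl2l11 were smaller. They were -0.26 at 0 h (adjusted p = 0.069), -0.36 at 1 h (SE 0.09, adjusted p = 0.011) and -0.27 at 5 h (SE 0.09, adjusted p = 0.038). The genotypes did not overlap at 5 h. At 0 and 1 h they overlapped through the lowest WT library alone (80.4 and 288 CPM), each below the highest Nur77-KO library (82.3 and 291 CPM). Leaving out Nur77-KO replicate 3 ended the call at 1 h (-0.32, adjusted p = 0.059). At 5 h the call ended without any one of Nur77-KO replicates 1 and 2 and WT replicates 2, 3 and 4 (-0.29 to -0.20, adjusted p = 0.056 to 0.18), and in the fit to the libraries compared (adjusted p = 0.21, range over alternatives 0.022 to 0.21). At 0 h the difference was called without the 2 libraries that stood apart (-0.26, adjusted p = 0.015) and without WT replicate 2 (-0.32, adjusted p = 0.027).

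**Figure D3:**
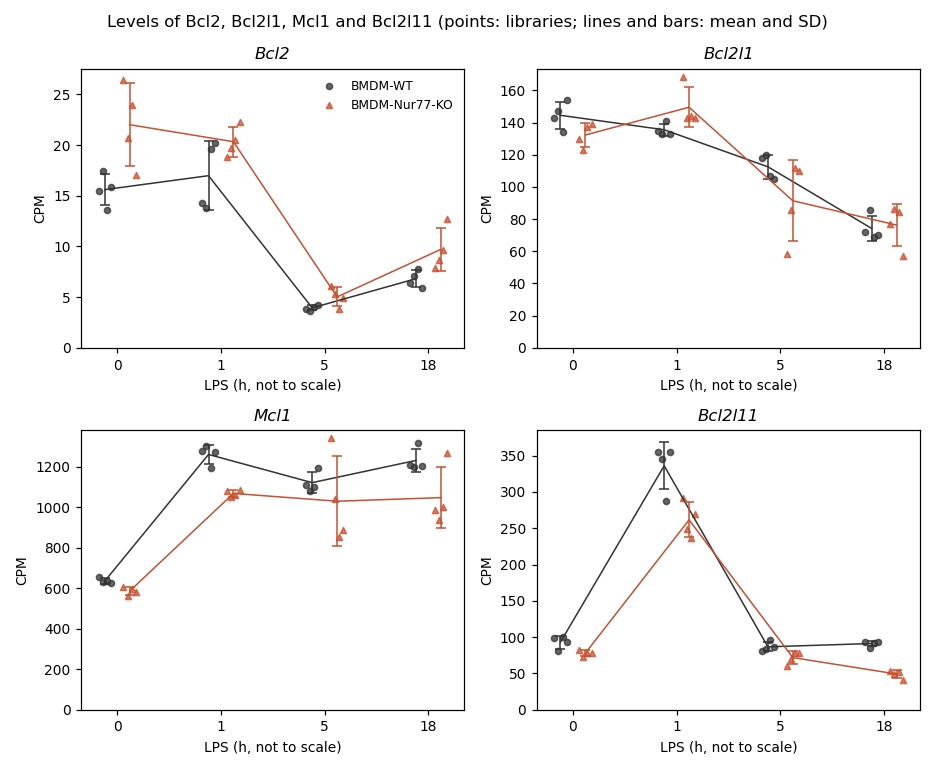
CPM (linear axes from 0) of Bcl2, Bcl2l1, Mcl1 and Bcl2l11 in each library by hours of LPS (time not to scale). Circles are WT and triangles Nur77-KO libraries, lines join group means, and bars are SD (n = 4). Bcl2l11 peaks at 1 h in both genotypes (mean 336 CPM in WT, 261 in Nur77-KO), and Bcl2 is lowest at 5 h.

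Bbc3 (NM_133234, chr7:16308398-16318334) encodes PUMA, a BH3-only protein best known as a p53 target. It had the lowest mean count of the members. WT libraries read 7.61, 8.6, 8.68 and 7.09 CPM before LPS, 3.83, 3.79, 4.14 and 3.12 after 1 h, 7.95, 8.55, 6.87 and 4.72 after 5 h, and 9.59, 12.4, 6.6 and 8.27 after 18 h. Nur77-KO libraries read 6.36, 7.19, 5.81 and 8.41 CPM before LPS, 5.29, 4.95, 4.14 and 5.32 after 1 h, 3.81, 7.87, 13.8 and 14.5 after 5 h, and 10.9, 11.2, 12 and 4.25 after 18 h. The WT groups at 0 and 1 h did not overlap, and the lowest values of Nur77-KO at 5 and 18 h came from the 2 libraries that stood apart. Bbc3 has the most GC-rich transcript of the members (65.2% GC, against 44.1% to 59.2% for the others), and such transcripts read low in these libraries. Whether this accounts for their low Bbc3 values was not tested. In WT it fell by 1.09 on the log2 scale at 1 h (SE 0.29, adjusted p = 0.0074), and in Nur77-KO the change of -0.50 had an adjusted p of 0.4 over all libraries, 0.028 in the fit to the libraries compared and 0.033 after correction for GC. Between 1 and 5 h it rose by 0.90 in WT (adjusted p = 0.013) and by 1.02 in Nur77-KO (adjusted p = 0.0024). The genotype difference at 5 h was 0.51 (SE 0.29, adjusted p = 0.19). Without the 2 libraries it was 0.77 (adjusted p = 0.0055), and after correction for GC it was 0.60 (adjusted p = 0.015), within a range of 0.0055 to 0.42 over all alternatives. From 0 h, Bbc3 in Nur77-KO was 0.53 higher at 5 h (adjusted p = 0.091) and 0.46 higher at 18 h (adjusted p = 0.14), and without the 2 libraries 0.78 and 0.71 higher (adjusted p = 0.0004 and 0.00099).

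Bax (NM_007527, chr7:45461695-45466903) and Bak1 (NM_007523, chr17:27019812-27028627) encode the effectors that open the mitochondrial membrane, and Bak1 rose with LPS at 5 and 18 h, whereas edgeR's quasi-likelihood test called no change of Bax from 0 h over all libraries. Bax in WT read 51.9, 57.4, 52.4 and 61.7 CPM before LPS, 50, 54.2, 49.5 and 41.2 after 1 h, 50, 54.9, 51.2 and 47.4 after 5 h, and 69.8, 64.1, 44.6 and 72.4 after 18 h. In Nur77-KO it read 41.5, 44.5, 43.3 and 51 CPM before LPS, 57.8, 49.7, 43.3 and 48.3 after 1 h, 25.7, 38.6, 46.5 and 46.4 after 5 h, and 60.4, 59.1, 58.5 and 42.3 after 18 h. At 0 and 5 h all Nur77-KO libraries of Bax were below all WT libraries, and at 1 and 18 h the genotypes overlapped. No genotype difference of Bax was called over all libraries (-0.31 at 0 h, adjusted p = 0.17, and -0.37 at 5 h, adjusted p = 0.07). At 0 h it was called without the 2 libraries (-0.31, adjusted p = 0.035), and at 5 h without Nur77-KO replicate 3 or 4 (-0.46 in each case, adjusted p = 0.029). Without replicate 1, which stood apart, the 5 h difference was -0.22 (adjusted p = 0.33). From 5 to 18 h in Nur77-KO the Bax change was 0.48, which was no longer called in the fit to the libraries compared (adjusted p = 0.062) or after correction for GC (0.09, adjusted p = 0.24). After correction for GC, Bax at 5 h was higher than at 0 h in WT (0.28, adjusted p = 0.00055) and in Nur77-KO (0.20, adjusted p = 0.011), where the uncorrected changes were -0.13 and -0.20. At 18 h Bax in Nur77-KO was 0.29 above 0 h (adjusted p = 0.082). This was called with DESeq2 (0.32, adjusted p = 0.046), with DESeq2's size factors in edgeR (0.32, adjusted p = 0.049), after correction for GC (0.29, adjusted p = 0.0003) and without the library that stood apart (0.40, adjusted p = 0.019). In WT at 18 h the change was 0.17 (adjusted p = 0.32), and 0.27 after correction for GC (adjusted p = 0.00064).

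Bak1 in WT read 87.1, 92.9, 88.9 and 92.6 CPM before LPS, 73.5, 81.3, 77.8 and 73.1 after 1 h, 160, 166, 164 and 154 after 5 h, and 197, 204, 176 and 189 after 18 h. In Nur77-KO it read 82.7, 80.4, 79.6 and 91.2 CPM before LPS, 84.8, 84.3, 84.2 and 74.9 after 1 h, 127, 153, 134 and 138 after 5 h, and 220, 220, 227 and 243 after 18 h. In both genotypes every 5 h and 18 h library was above every library at 0 and 1 h. Between genotypes Nur77-KO was lower at 5 h and higher at 18 h, in each case without overlap. Bak1 rose in WT by 0.83 on the log2 scale at 5 h (SE 0.07, adjusted p = 1.8e-12) and by 1.08 at 18 h (2.12-fold, adjusted p = 4.4e-15), and in Nur77-KO by 0.73 and 1.45. The dip at 1 h in WT (-0.24, SE 0.07, adjusted p = 0.0088) was -0.02 after correction for GC (adjusted p = 0.94).

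The genotype difference of Bak1 was -0.22 at 5 h (SE 0.07, adjusted p = 0.017) and 0.25 at 18 h (SE 0.07, 1.19-fold, adjusted p = 0.0057). The 5 h call was lost without Nur77-KO replicate 1 (-0.18, adjusted p = 0.07) and in the fit to the libraries compared (adjusted p = 0.19), and its direction turned after correction for GC (0.02, adjusted p = 0.92). At 18 h the difference was 0.39 after correction for GC (adjusted p = 0.0048) and had an adjusted p of 0.088 in the fit to the libraries compared. The alternatives gave adjusted p from 0.011 to 0.92 at 5 h and from 0.00015 to 0.088 at 18 h. Of the exonic bases of Bak1, 25.7% overlap Ggnbp1 on the opposite strand, and of those of Bax, 22.1% overlap Gm45808 on the same strand. The libraries were strand-specific, but the methods do not say whether counting used the strand. Reads of these bases therefore cannot be told apart from those of the other gene.

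**Figure D4:**
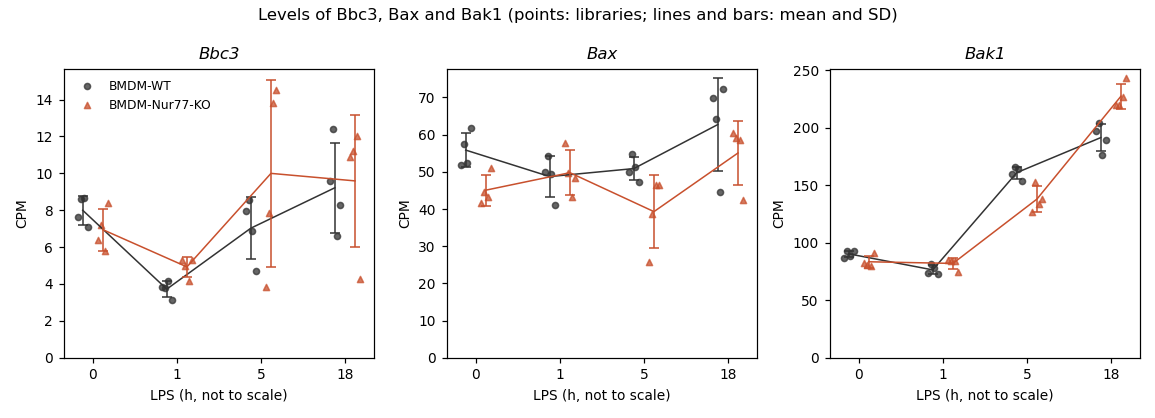
CPM (linear axes from 0) of Bbc3, Bax and Bak1 in each library by hours of LPS (time not to scale). Circles are WT and triangles Nur77-KO libraries, lines join group means, and bars are SD (n = 4). Bak1 is above its 0 h level at 5 and 18 h in both genotypes, and 1 Nur77-KO library at 5 h has the lowest Bax value (25.7 CPM).

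The difference of the LPS responses was tested as an interaction term. At 18 h it was called for 3 of 10 members: Bcl2a1b (0.57, SE 0.15, adjusted p = 0.014) and Bak1 (0.36, SE 0.09, adjusted p = 0.0096) rose more from 0 h in Nur77-KO, against 5.36% of all genes, and Bcl2l11 went lower (-0.63), against 4.03%. The Bak1 term was 0.32 after correction for GC (adjusted p = 0.16). For Bcl2a1a (0.32, adjusted p = 0.52) and Bcl2a1d (0.37, adjusted p = 0.29) the term was not called, and for Bcl2 it was 0.02. At 1 h 0 members were called in edgeR's quasi-likelihood test and in DESeq2 (0.0443% of all genes higher, 0.0266% lower), with 3 members at an unadjusted p under 0.05. At 5 h 0 members were called by either tool (1.73% higher, 1.37% lower), with 2 at an unadjusted p under 0.05. Without the 2 libraries that stood apart, 1 member was called at 5 h, Bbc3 (0.97, adjusted p = 0.024).

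Later steps of the time course were tested in each genotype on its own. From 1 to 5 h in WT, 5 members rose (28.9% of all genes) and 2 fell (36.0%). In Nur77-KO 5 rose (32.5%) and 4 fell (38.2%). Bcl2l11 fell by 1.96 in WT and by 1.86 in Nur77-KO on the log2 scale, and Bcl2 fell 4.28-fold and 4.05-fold. From 5 to 18 h in WT, 2 members rose (Bcl2 and Bak1, 35.9% of all genes) and 4 fell (the A1 copies and Bcl2l1, 33.2%). The Bak1 change of 0.25 was 0.00 after correction for GC (adjusted p = 1). In Nur77-KO 3 rose (Bcl2, Bax and Bak1, 34.9%) and 4 fell (the A1 copies and Bcl2l11, 33.9%). Over this time Bcl2a1b fell by 2.14 in WT and by 1.30 in Nur77-KO, and Bcl2a1d fell by 1.78 and 1.02. Bcl2l11 changed by 0.07 in WT (adjusted p = 0.5) and fell by 0.54 in Nur77-KO (adjusted p = 9.5e-06).

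Ordered by mean CPM over the 8 groups, the members differed in which neighbouring groups overlapped. For Bcl2a1b both 5 h groups stood above all others, with WT (744) above Nur77-KO (610), and the 0 h groups were lowest and overlapped. For Bcl2a1a the order was Nur77-KO 5 h (94.7), WT 5 h (80.7) and Nur77-KO 18 h (74.8), each overlapping the next, then WT 18 h (36.3) without overlap to either side. The Bcl2a1d levels followed time in the same way, with 5 h highest and the 18 h groups of Nur77-KO (146) and WT (90.3) apart from each other and from all others. For Mcl1 the 0 h groups stood below the rest, and among the other 6 groups only WT 18 h (1230) and WT 5 h (1121) were neighbours without overlap. For Bcl2l1 the single gap was between Nur77-KO at 0 h (132) and WT at 5 h (112). For Bcl2 the 4 groups at 0 and 1 h (15.6 to 22) overlapped in sequence and were apart from Nur77-KO 18 h (9.72), which was apart from WT 18 h (6.82). For Bcl2l11 both 1 h groups (336 and 261) were far above the next (93.2) and Nur77-KO 18 h (49.2) was apart below. For Bbc3 the 1 h groups had the lowest means (4.92 and 3.72), and single libraries of Nur77-KO at 5 h (3.81) and 18 h (4.25) and of WT at 5 h (4.72) fell within their ranges. For Bax all neighbours overlapped, from 62.7 in WT at 18 h to 39.3 in Nur77-KO at 5 h. For Bak1 the 5 and 18 h groups were each apart from their neighbours, and the 4 groups at 0 and 1 h (76.4 to 90.4) overlapped in sequence.

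Levels were compared between genes per transcript length, as RPKM, the CPM value divided by the transcript's length in kilobases. In WT without LPS, mean levels were 186 for Mcl1, 101 for Bcl2a1b, 64.4 for Bax, 56.3 for Bcl2l1, 37.9 for Bak1, 18.5 for Bcl2l11, 9.07 for Bcl2a1d, 4.41 for Bbc3, 2.17 for Bcl2 and 1.49 for Bcl2a1a. At 5 h Bcl2a1b was highest, with 911 ± 29.2 RPKM in WT and 747 ± 88.8 in Nur77-KO, above Mcl1 (328 ± 15 and 301 ± 65), and in WT Bcl2 was lowest with 0.548 RPKM. The length of another isoform was used for Bcl2l1, and the summed levels take 1 transcript per gene. Summed over the 10 members, the level was 481 ± 16.8 RPKM in WT before LPS, 1007 ± 66.6 after 1 h, 1889 ± 49 after 5 h and 921 ± 17.5 after 18 h. In Nur77-KO it was 445 ± 23.7, 902 ± 80.2, 1667 ± 83.7 and 1076 ± 43.8.

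Survival members made up 74% of this sum in WT before LPS, 92.2% after 5 h and 81% after 18 h, and 76.1%, 92.6% and 83.8% in Nur77-KO. The A1 copies alone were 23.1% in WT and 25.4% in Nur77-KO before LPS, 72.5% and 72.3% after 5 h, and 38.6% and 52.5% after 18 h. BH3-only genes held 4.76% in WT before LPS, 6.83% after 1 h, 1.12% after 5 h and 2.52% after 18 h. The Nur77-KO shares were 4.34%, 6.05%, 1.19% and 1.41%. With all transcripts of a gene summed, which counts shared reads more than 1 time, the WT BH3-only shares were 7.88%, 15.1%, 2.8% and 5.26%, and at 18 h the A1 shares were 30.9% in WT and 43.1% in Nur77-KO (14.2% and 15.7% before LPS). Effectors went from 21.3% in WT at 0 h to 6.68% at 5 h and 16.5% at 18 h, and from 19.5% to 6.19% and 14.8% in Nur77-KO. With all transcripts summed, effectors instead ended higher at 18 h than at 0 h. Their shares at 0, 5 and 18 h were then 17.9%, 8.91% and 20.1% in WT and 17%, 8.45% and 19.4% in Nur77-KO. Survival members then held 74.2%, 88.3% and 74.6% in WT and 75.8%, 88.8% and 77.9% in Nur77-KO.

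**Figure D5:**
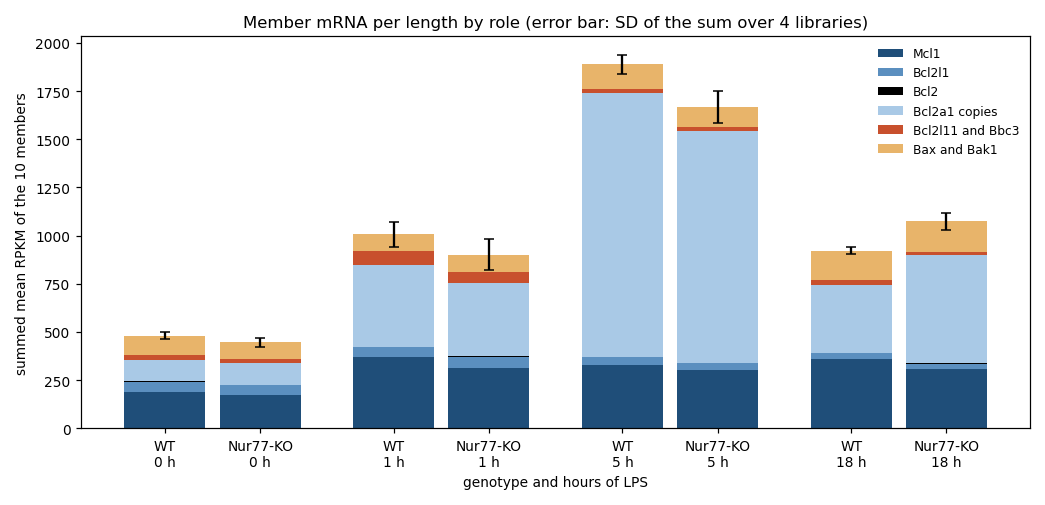
Summed mean RPKM of the 10 members in each of the 8 groups, stacked as Mcl1, Bcl2l1, Bcl2, the A1 (Bcl2a1) copies, the BH3-only genes Bcl2l11 and Bbc3, and the effectors Bax and Bak1, with bars for the SD of the sum (n = 4). The sum is highest at 5 h (1889 RPKM in WT, 1667 in Nur77-KO), where the A1 copies fill most of it, and at 18 h their layer is larger in Nur77-KO than in WT.

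In ratios of RPKM within a library, the summed A1 copies stood at 19.7 ± 1.44 times Bcl2l11 in WT at 18 h and at 58.5 ± 8.5 times in Nur77-KO (n = 4 each). The highest WT library was 21.7 and the lowest Nur77-KO library 50.2. At 0 h the same ratio was 6.01 in WT and 7.33 in Nur77-KO, and at 5 h it was 79.8 and 85.1. All survival members over both BH3-only genes came to 32.2 ± 1.3 in WT (31 to 34) and 62.8 ± 19.5 in Nur77-KO (50 to 92) at 18 h. Bak1 was lower than Bax per length at 0 h (ratio 0.59 in WT and 0.674 in Nur77-KO). At 18 h it was higher on average (1.14 in WT, range 0.946 to 1.43, and 1.54 in Nur77-KO, range 1.32 to 2.09). The values of 92 and 2.09 came from Nur77-KO replicate 4, which stood apart. These ratios combine values given above and were not tested on their own.

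The other genes of the pathway were described from fixed lists, whose counts stand beside 30.0% of all genes higher and 40.1% lower at 5 h of LPS in WT, and 11.7% higher and 9.80% lower in Nur77-KO at 18 h. Of 16 other BCL2 family genes 10 were tested, and at 18 h 1 was higher and 3 were lower in Nur77-KO, with a median log2 difference of -0.06. They include Bid, which caspase-8 cleaves into an activator of BAX and BAK, and which was lower in Nur77-KO at 5 h (26.3 ± 3.29 against 62 ± 3.08 CPM, log2 -1.24, SE 0.09, adjusted p = 1e-11). Bid was also called lower at 0 h (-0.90), 1 h (-0.73) and 18 h (-0.31, adjusted p = 0.0063). Bmf, a BH3-only gene, was lower at 18 h (2.41 ± 0.784 against 6.44 ± 0.825 CPM, log2 -1.43, adjusted p = 9.2e-05). In WT, LPS lowered Bmf at 5 h from 10.8 to 0.235 CPM (log2 -5.48, adjusted p = 1.6e-13), and Bcl2a1c went from 0.032 to 1.52 CPM.

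Among 7 caspase and apoptosome genes, 5 rose and 2 fell at 5 h of LPS in WT (median log2 1.28), with Apaf1, the scaffold of the apoptosome, at 2.13 (261 ± 6.18 CPM against 59.8 ± 3.18 at 0 h, adjusted p = 2.2e-22). Among 9 genes for inhibitor of apoptosis proteins, 6 rose and 2 fell at 5 h (median 0.67), with Birc3 at 2.89 and Birc2 at 2.14, and at 18 h 1 was higher and 1 lower in Nur77-KO (median 0.08). Of 10 death receptor genes 6 rose and 1 fell at 5 h in WT (median 1.00), among them Cflar, the caspase-8 inhibitor c-FLIP, from 91.3 to 1829 CPM, and the receptor gene Fas from 4.08 to 71.4 CPM. At 18 h 3 of these 10 were higher in Nur77-KO (median 0.10).

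Tnfrsf10b, which encodes the TRAIL receptor, was higher in Nur77-KO at every time. Its mean was 17.7 CPM against 2.48 at 0 h (log2 2.85, adjusted p = 1.2e-11), 27 against 3.55 at 1 h (2.93), 14.6 against 2.04 at 5 h (2.82) and 10.7 against 2.43 at 18 h (2.14, adjusted p = 6e-09). Of 13 genes of the p53 axis 11 were tested, and 3 rose and 7 fell at 5 h in WT (median -0.42), with Cdkn1a at 2.71 and Foxo3, a transcription factor known to activate Bcl2l11, at -3.87. At 18 h 2 were higher and 2 lower in Nur77-KO (median -0.05). Of 8 mitochondrial factors 2 rose and 4 fell at 5 h in WT (median -0.22), and at 18 h 1 was higher in Nur77-KO (median -0.05). Of 5 genes of MCL1 turnover 1 rose at 5 h in WT, the deubiquitinase gene Usp9x (log2 1.07, adjusted p = 1.9e-05), and 2 were higher in Nur77-KO at 18 h (median 0.18), among them Fbxw7, a ubiquitin ligase subunit (0.78, adjusted p = 1.5e-06).

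The genes whose log2 CPM ran most like each member over the 32 libraries (Pearson r, a description across libraries that share time points) were named by a fixed rule. For Bcl2a1a they were Cflar (0.989), Rnf19b (0.985) and Il12b (0.984), for Bcl2a1d Tagap (0.991), Il12b (0.991) and Birc3 (0.988), and for Bcl2a1b, among others, 4933416M07Rik (0.975) and Icam1 (0.974). Id3 (0.965), Btg2 (0.942) and 9530052E02Rik (0.938) were nearest to Bcl2l11, and Zfp263 (0.931), Cebpb (0.916) and Mdm2 (0.899) to Mcl1. The nearest genes of Bcl2 were Ttc3 (0.985), Glcci1 (0.979) and Ado (0.979), and those of Bcl2l1 were Parvb (0.968), Sf3b4 (0.968) and Limd1 (0.961). Bak1 ran most like 1600014C10Rik (0.986), Hrh2 (0.984) and Ptpn6 (0.982), Bax like Rbck1 (0.939), Alg1 (0.924) and Fkbp8 (0.923), and Bbc3 like Asb6 (0.854), Ints5 (0.843) and Mcat (0.836). Among the members, r was 0.98 between Bcl2a1a and Bcl2a1d, 0.94 between Bcl2a1b and Bcl2a1d and 0.87 between Bcl2a1a and Bcl2a1b, copies that also share reads. It was -0.83 between Bcl2l1 and Bak1 and -0.73 between Bcl2 and Bak1.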

How the data were processed

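RNA was measured by RNA-seq in 32 libraries (4 for each genotype and time). The methods describe strand-specific libraries made with an mRNA kit. The authors aligned reads to mm10 with HISAT2 2.1.0 after CASAVA 1.8.2, kept alignments by mapping quality with SAMtools, and counted tags per RefSeq transcript with HOMER. The deposited values are expected counts: all are multiples of 0.5, and 28.6% are not whole. They were rounded, and 93 of 42361 transcripts without a gene name (0.233% to 1.37% of the tags of a library) were left out. Each gene is represented by its transcript of highest mean count. The 11279 genes whose group mean exceeded 1 RPKM in some group were fitted with edgeR 4.0.16 (R 4.3.3, TMM, quasi-likelihood test, 1 mean per group, Benjamini-Hochberg adjustment), and an adjusted p under 0.05 was a call. CPM and RPKM are TMM-scaled. Alternatives used DESeq2 1.42.0, other filters, scalings, transcripts and library sets, and, chosen after seeing the data, a correction for GC and leaving out 2 libraries. The fit was tested on simulated data. Bid at other times, Fbxw7 and the cell type markers that are named were chosen after their values were seen. The other named genes are the 10 members, Nr4a1, genes of the pathway lists with the largest called changes, and the 3 genes most like each member. Some genes that this rule takes in are not reported here. Members and lists were chosen with earlier results of these data known. The same replicate number did not pair libraries by the labels. Motif matches and promoter sequences are from RefSeq, and coding sequences from GENCODE. Protein sequences were not used here.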

Additional observations from a re-analysis of the deposited data

Results flagged for a closer look

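In 8 of the 80 groups of 4 libraries (10 members in 8 groups), 1 library lay far from the other 3 by Dixon's criterion (the gap to the nearest library as a share of the group's range). Chance gives this in about 1 in 20 groups. In WT, Bcl2l11 read 288 CPM in replicate 3 at 1 h, where the others were between 346 and 355, and 85.3 CPM in replicate 2 at 18 h, where the others were between 92.5 and 93.8. Mcl1 read 1314 CPM in WT replicate 3 at 18 h, beside 1196 to 1206, and Bcl2a1b read 709 CPM in WT replicate 1 at 5 h, beside 751 to 758. In Nur77-KO at 1 h, Bcl2l1 read 168 CPM in replicate 1 (others 143 to 144) and Bak1 read 74.9 CPM in replicate 4 (others 84.2 to 84.8). In Nur77-KO at 18 h, replicate 4 was lowest for Bbc3 (4.25 CPM, others 10.9 to 12) and for Bax (42.3 CPM, others 58.5 to 60.4), 2 GC-rich transcripts, and such transcripts read lower in it than in the rest of its group. Whether GC accounts for these 2 values was not tested.

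The change from 0 to 18 h of LPS differed between Nur77-KO and WT, by the interaction term in edgeR's quasi-likelihood test, for Bcl2l11 (log2 -0.63), Bcl2a1b (0.57) and Bak1 (0.36).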

How the results depend on the processing

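Of 84 called values among 170 (10 members in 17 comparisons), 69 stayed called in every alternative and every fit without 1 library, a fold limit apart. The sign of a called value changed for 2, both after correction for GC: Bak1 between genotypes at 5 h (log2 0.02) and Bax in Nur77-KO from 1 to 5 h (0.10). The cause was not tested. With a log2 change over 1 also required, the count of members called was 4 in both genotypes at 5 h of LPS, 5 in Nur77-KO at 18 h, 3 in WT and 2 in Nur77-KO from 5 to 18 h, 0 between genotypes at 0, 1 and 5 h, 1 at 18 h, and 0 for the interaction at 18 h. Between genotypes at 0 h the count was 2, and it was 4 without the 2 libraries that stood apart, 1 with the copies summed and 1 after correction for GC. At 1 h it was 1, and 2 without the 2 libraries or in the fit to the libraries compared. At 5 h it was 2, and 0 in the fit to the libraries compared, 4 with DESeq2 and 1 without a filter. The interaction count was 1 at 5 h without the 2 libraries and 5 at 18 h with the copies summed, where all 3 copies take the value of the sum. Without 1 library, the genotype counts were 0 to 2 at 0 h, 0 to 1 at 1 h and 1 to 5 at 5 h. The replicate block left 2 members called between genotypes at 0 h and 6 at 18 h, and ended 1 call, Bax in Nur77-KO from 1 to 5 h (-0.34, adjusted p = 0.056). Numbers did not pair the libraries: same-number correlations ran from -0.70 to 0.46, and 8 of 32 libraries correlated best with their own number. After correction for GC, values not called before that changed sign were Bak1 (0.07), Bbc3 (0.02) and Bcl2l1 (0.03) between genotypes at 0 h, Bax at 1 h (-0.06), the interaction at 1 h of Bak1 (-0.04) and Bcl2a1b (0.00), and in WT Bax (0.06) and Bcl2l1 (0.10) at 1 h, Bax (0.28) and Bbc3 (0.29) at 5 h, Bcl2l11 at 18 h (0.04) and Bax from 5 to 18 h (-0.01), with Bax in Nur77-KO at 5 h (0.20). Without the 2 libraries the interactions of Bax (0.09) and Bcl2l11 (0.06) at 5 h and Bcl2 at 18 h (-0.13) did. With the copies summed, Bcl2a1a read -0.16 at 1 h and -0.18 at 5 h and Bcl2a1b 0.03 at 0 h between genotypes. Under DESeq2 and its size factors, Bcl2a1b at 0 h (0.01, also in the fit to the libraries compared), Bcl2l11 in WT at 18 h (0.01) and Mcl1 in Nur77-KO from 1 to 5 h (0.01) and 5 to 18 h (-0.03) changed sign, and with all transcripts summed Bcl2l11 at 5 h in Nur77-KO (0.00) and WT (0.01) and from 5 to 18 h in WT (-0.04). Fits without 1 library spanned 0 for Bak1 in Nur77-KO at 1 h (-0.05 to 0.02), Bax in WT from 1 to 5 h (-0.01 to 0.11), Bbc3 in Nur77-KO from 5 to 18 h (-0.32 to 0.18), Bcl2l11 in WT at 18 h (-0.10 to 0.00) and Mcl1 in Nur77-KO from 1 to 5 h (-0.21 to 0.03) and 5 to 18 h (-0.08 to 0.18). They also did between genotypes for Bax at 1 h (-0.05 to 0.09), Bcl2a1b at 0 h (-0.11 to 0.03), and Bbc3 (-0.07 to 0.31) and Bcl2l1 (-0.02 to 0.16) at 18 h, and for the interactions of Bax (-0.15 to 0.09), Bcl2l11 (-0.06 to 0.06) and Mcl1 (-0.16 to 0.08) at 5 h and Bax (-0.01 to 0.23) and Bcl2 (-0.13 to 0.12) at 18 h. DESeq2's size factors differed from TMM by at most 0.074 on the log2 scale in any library. Bcl2a1a at 0 h rests on 11 to 38 counts per library.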
